A study of Homo sapiens with 4 samples.

Results

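The 40 genes described here act in mitosis and in the assembly of the spindle. They were taken as a list of gene symbols, found on the arrays by the RefSeq accession of each probe, and grouped by role into 12 cyclins, kinases and regulators, 10 kinetochore and checkpoint genes, 9 motor and spindle genes, and 9 genes of cytokinesis and the chromosomal passenger complex. All 40 were matched and retained, out of 18919 genes or unnamed transcripts retained in the whole series. They were measured by 49 probes, of which 48 stood well above background on all 4 arrays. The exception was a dim CDK1 probe, in 5-azacytidine-treated non-MG cells.

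The cells were from HCT116, a human colorectal carcinoma line. In the study's transwell selection, repeated 5 times, the cells that crossed the membrane became the MG cells and those that stayed became the non-MG cells, so that both are enriched populations and not clones. Each population received 5 µM 5-azacytidine, a nucleoside analog that blocks DNA methyltransferases, or vehicle for 48 h, and the labels name no genetic alteration in any group. With 400 ng of RNA, each of the 4 conditions was hybridized to 1 one-colour Agilent array, so there were no replicates. The test made on the 4 arrays is an additive one, in which the arrays of 1 population under different treatments stand in for repeats. It is given after the ratios. Whether the cultures were grown separately is not stated. All 4 arrays lay on 1 slide, each population in a row of its own and each treatment in a column of its own, so position and condition cannot be told apart. Of 8 epithelial markers 7 were detected well above background throughout and VIL1 on no array. The summed scaled intensity of the 7 was 1024 and 998 on the non-MG arrays and 915 and 939 on the MG arrays. Of 9 leukocyte, endothelial and fibroblast markers, CD14, VWF and COL1A1 were likewise detected throughout, with a summed scaled intensity between 0.910 and 1.68, while PTPRC, CD3E, PECAM1, COL1A2, DCN and PDGFRB were on no array. The sum of these 3 genes was lower on the MG arrays (0.910 and 1.28) than on the non-MG arrays (1.53 and 1.68), and their part in the results below was not tested. Among the epithelial markers, the MG cells differed from the non-MG cells on the log2 scale by -0.66 with vehicle and -0.49 with 5-azacytidine for CDH1. The study reported CDH1 mRNA as unchanged in MG cells. The other differences were -0.48 and -0.18 for CLDN7, -0.26 and -0.20 for KRT19, and -0.04 and -0.14 for CDX1. They were 0.33 and 0.09 for KRT8, 0.14 and 0.28 for KRT18, and 0.05 and 0.05 for EPCAM. The part of these differences in the results was not tested either.

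In mitosis, cyclin-dependent kinase CDK1 bound to cyclin B drives chromosome condensation and spindle assembly. Kinetochores join each chromosome to spindle microtubules, the spindle checkpoint holds back the anaphase-promoting complex until all chromosomes are attached, and the central spindle then guides the division of the cytoplasm. Most of these genes are transcribed mainly in late S phase, G2 and mitosis, when B-MYB and FOXM1 join the MuvB complex at their promoters, and the same complex with other partners keeps them low in resting cells. In a colorectal carcinoma line grown in culture, these transcripts come from the dividing cells. In RNA from whole cultures, a larger share of cells in mitosis and more of the transcript per cell cannot be told apart. The study reported that MG and non-MG cells did not differ in growth rate, and how this relates to the ratios below was not tested.

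The promoters of these genes are known for a pair of short elements, the cell cycle genes homology region (CHR), which MuvB binds, and the CCAAT box, which NF-Y binds. RefSeq promoter windows of GRCh38.p14, reaching from 250 bases before to 50 bases after a gene's start, were searched on both strands. The CHR was written as TTTGAA, or in a form that reads the same on both strands, TTCGAA. The other element was searched as CCAAT. Of the 40 genes, 34 had a window, and AURKA, BIRC5, FOXM1, TPX2, TTK and UBE2C had none. Among the 41 windows of these 34 genes, 30 (73.2%) held a CHR, as compared with 16.4% of all 35116 windows of the table. A CCAAT box was found in 32 windows (78.0%), as compared with 34.6% of all windows, and 21 windows (51.2%) held 2 or more, as compared with 10.8%. Both elements occurred together in 25 windows (61.0%), as compared with 6.38% of all windows. By gene, 27 of 34 had a CHR, 28 had a CCAAT box and 32 had at least one of them. A gene was counted here if any of its windows matched. The share of all genes was not counted this way, so these counts by gene cannot be set against it. These matches describe the letters in the windows and do not show that a factor was bound.

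The promoters of 6 genes are printed to show this shared layout and where it is missing beside the measured values. CCNB2, KIF23 and PLK1 carry both elements. With vehicle, CENPE had the highest ratio of the list and INCENP the lowest, and MAD2L1 was higher in MG cells past 1.5-fold both with vehicle and with 5-azacytidine. Each stretch is 180 bases long, reads 5′ to 3′ on the gene's strand and ends 50 bases after the start. Capitals mark CHR and CCAAT matches on either strand, so that ATTGG is a CCAAT box on the other strand.
CCNB2, chr15:59105016-59105195, plus strand: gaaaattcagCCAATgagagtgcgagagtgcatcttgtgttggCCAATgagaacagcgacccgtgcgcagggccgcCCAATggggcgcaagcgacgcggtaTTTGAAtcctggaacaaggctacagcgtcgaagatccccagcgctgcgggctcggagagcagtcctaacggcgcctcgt
KIF23, chr15:69414219-69414398, plus strand: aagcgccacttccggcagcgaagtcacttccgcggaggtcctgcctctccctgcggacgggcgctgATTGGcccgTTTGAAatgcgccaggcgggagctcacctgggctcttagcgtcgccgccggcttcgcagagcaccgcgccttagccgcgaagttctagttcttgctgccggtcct
PLK1, chr16:23678759-23678938, plus strand: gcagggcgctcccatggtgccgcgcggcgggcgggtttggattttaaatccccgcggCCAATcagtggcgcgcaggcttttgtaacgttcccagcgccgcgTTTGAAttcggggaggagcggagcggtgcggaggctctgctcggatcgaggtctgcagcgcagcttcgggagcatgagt
CENPE, chr4:103198294-103198473, minus strand: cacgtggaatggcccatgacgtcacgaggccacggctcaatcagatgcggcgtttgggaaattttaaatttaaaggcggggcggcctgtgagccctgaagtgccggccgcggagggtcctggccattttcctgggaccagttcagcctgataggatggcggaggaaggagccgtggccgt
MAD2L1, chr4:120066799-120066978, minus strand: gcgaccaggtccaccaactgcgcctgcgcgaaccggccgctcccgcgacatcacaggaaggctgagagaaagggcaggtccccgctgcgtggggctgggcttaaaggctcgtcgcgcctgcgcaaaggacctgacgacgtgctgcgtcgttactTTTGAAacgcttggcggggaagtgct
INCENP, chr11:62123881-62124060, plus strand: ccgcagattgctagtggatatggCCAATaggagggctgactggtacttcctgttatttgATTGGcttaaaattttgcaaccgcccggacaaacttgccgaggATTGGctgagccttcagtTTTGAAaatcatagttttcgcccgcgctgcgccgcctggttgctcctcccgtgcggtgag
Counted from the start, the CHR lies at -29 in CCNB2 and PLK1, at -55 in KIF23, at -10 in INCENP and, past the start, at 24 in MAD2L1. The stretch of CENPE holds neither element, and that of INCENP holds a CHR and 3 CCAAT boxes.

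The measured quantity is the background-corrected intensity of a probe divided by the 75th percentile of its array, called scaled intensity. Its log2 was averaged over the spots of a probe and the probes of a gene, and a ratio is the difference of these log2 values between a pair of arrays. Values are given first for non-MG cells and then for MG cells, each with vehicle and then with 5-azacytidine. They compare the same probe between arrays and do not rank genes by level. The 75th percentile of intensity was 75.2 to 98.7, between 21384 and 21882 of 50594 probes were well above background on each array, and no spot was saturated. The spot error of a ratio was taken from the SD between repeated spots of the same probe. For the 40 genes in vehicle-treated MG over non-MG cells it had a median of 0.07 on the log2 scale (range 0.02 to 0.23). It covers spotting and scanning, but not the spread between cultures or labellings, and the number of arrays limits the precision of every ratio.

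To ask how the mitotic genes differed between motile and immotile cells, MG cells were compared with non-MG cells, once with vehicle and once with 5-azacytidine. These comparisons share no array. With vehicle, the mitotic genes had a median log2 ratio of 0.40, a 1.32-fold higher level in MG cells, whereas the median of all 18919 genes was -0.03. The ratios ran from -0.18 for INCENP to 1.06 for CENPE, and 39 of the 40 were above 0, as compared with 47.1% of all genes. Past 1.5-fold, 9 were higher in MG cells, as compared with 8.24% of all genes, and 0 were lower, as compared with 12.6%. With 5-azacytidine the median was 0.45, or 1.36-fold, whereas that of all genes was -0.006. There, 38 were above 0, as compared with 49.5% of all genes, 9 were higher past 1.5-fold, as compared with 8.6%, and 0 were lower, as compared with 12.3%. The ratios ran the same way for nearly all of the mitotic genes and were within 1.5-fold for most of them. Well above background on all 4 arrays were 39 of the 40 genes, but 15017 of all 18919. Dim probes carry the largest spot errors, and the shares past 1.5-fold were not counted for detected genes alone. The median of genes detected on all 4 arrays was -0.009 with vehicle and 0.02 with 5-azacytidine.

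For 38 of the 40 genes both MG arrays lay above both non-MG arrays, which was the case for 28.8% of all genes. The exceptions were CDC25C and INCENP. Higher past 1.5-fold both with vehicle and with 5-azacytidine were 6 genes (CCNA2, CCNB1, MAD2L1, CENPE, TPX2 and ASPM), as compared with 3.4% of all genes. NUF2, KIF11 and KIF23 passed with vehicle alone, and TOP2A, CENPF and AURKA with 5-azacytidine alone. The other 28 were within 1.5-fold both times. The cut is 0.585 on the log2 scale, and some genes lay close to it. Passing with 1 treatment alone thus does not show that the ratios differed by treatment. NUF2 had 0.61 and 0.51 (spot error 0.09 each) and KIF23 0.62 and 0.54 (spot error 0.06 each). Under the alternatives, the ratio with 5-azacytidine fell as low as 0.53 for CCNA2 and 0.47 for TPX2. On its bright probe alone, CENPF also passed with vehicle, at 0.67. With vehicle, 34 ratios were more than 2 spot errors above 0, as compared with 24.3% of all genes, and with 5-azacytidine 35 were, as compared with 26.6%.

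An additive limma fit with a term for population and one for treatment leaves 1 residual degree of freedom, and it was chosen after seeing the data. For MG over non-MG cells, 0 of the 40 genes and 0% of all 18919 genes had a limma p-value under 0.05 after Benjamini-Hochberg adjustment over all genes, and the lowest adjusted p of the 40 was 0.151. Before adjustment, the limma p was under 0.05 in 22 of the 40 genes, all of them higher in MG cells, as compared with 27.6% of all genes in either direction. CENPE had the lowest of these, with a fitted log2 ratio of 1.21 (SE 0.13, limma adjusted p = 0.151), followed by MAD2L1 with 0.69 (SE 0.10). Of the settings tried, 2 changed the count after adjustment. With normexp background correction it became 34 of 40, as compared with 4335 of all 18919 genes, 2681 of them higher in MG cells. When a probe had to be detected on every array it became 20 of 40, as compared with 3659 of all 15708 genes, 1780 of them higher. All of these mitotic genes were higher in MG cells.

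The scaling of the arrays sets the zero of these ratios. When each array was centred on its median, the median of all genes became 0.17 with vehicle and 0.25 with 5-azacytidine, and when it was scaled to spike-in control RNA it became 0.17 and 0.23. The count of mitotic genes past 1.5-fold then became 21 with vehicle and 28 with 5-azacytidine by centring, as compared with 15.8% and 20.9% of all genes. By spike-in scaling it became 22 and 28, as compared with 16.2% and 19.3%. The distance of the mitotic genes from the median of all genes was 0.43 with vehicle and 0.45 with 5-azacytidine, and by construction a change of scale cannot move it. It became 0.41 and 0.38 after quantile normalization and 0.43 and 0.54 with normexp background correction.

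**Figure D1:**
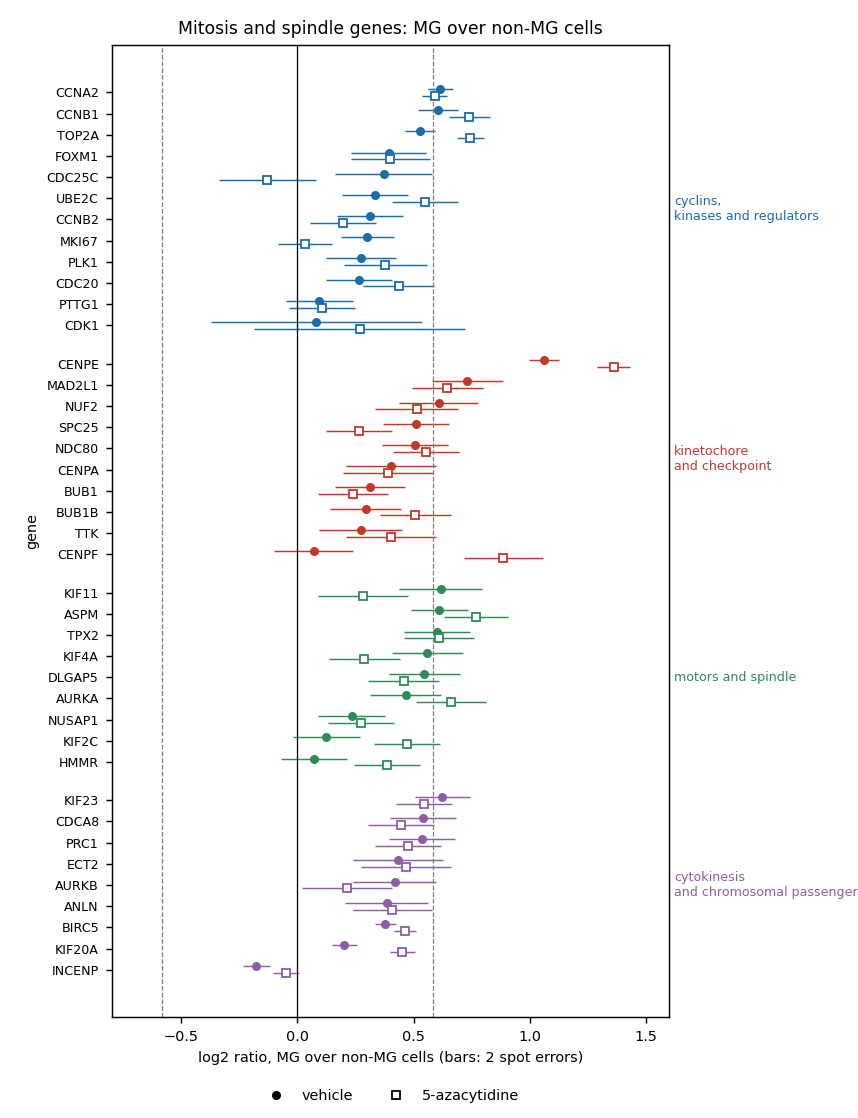
Ratio of MG over non-MG cells on the log2 scale (x axis) for each of the 40 genes by group, with filled circles for vehicle, open squares for 5-azacytidine, and horizontal bars of 2 spot errors, from 1 array per condition. Dashed lines mark 1.5-fold; 39 of the circles and 38 of the squares lie above 0, and CENPE lies farthest to the right at 1.06 and 1.36.

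**Figure D2:**
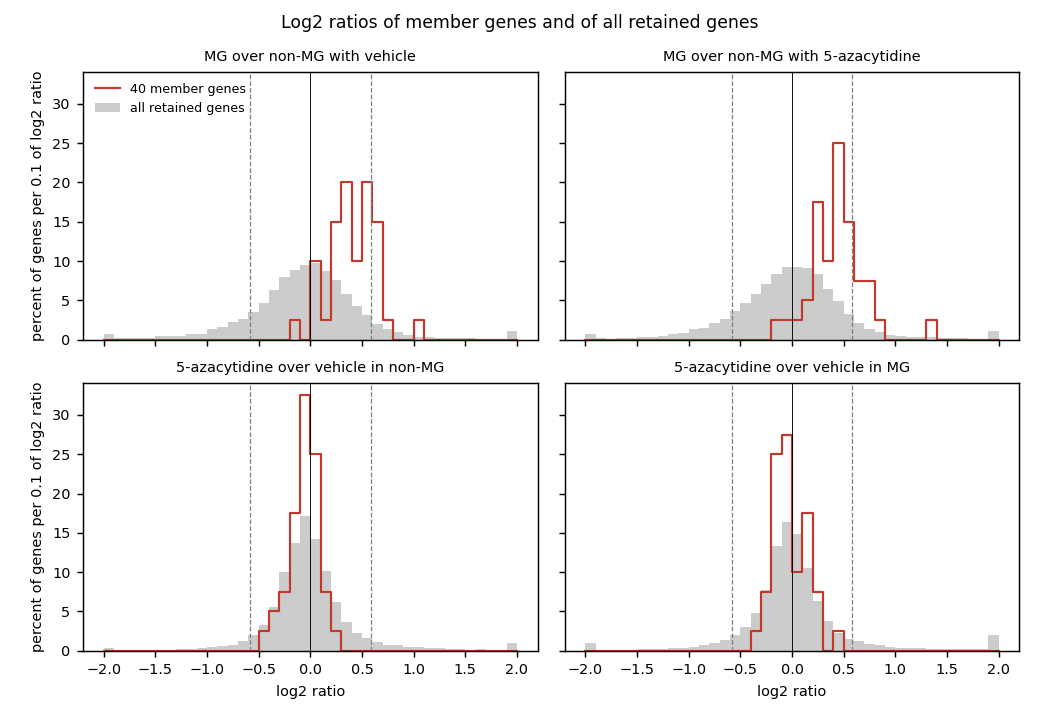
Share of genes per 0.1 of log2 ratio, in percent, for the 40 mitotic genes (red line) and all 18919 genes (grey), with 1 panel for each pair of arrays; genes beyond the axis are gathered in the outermost bins. The red line is shifted to the right in the upper panels, with medians of 0.40 and 0.45, and centred near 0 in the lower panels, with medians of -0.04 and -0.06.

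Of the cyclins, kinases and regulators, 2 of 12 were higher past 1.5-fold with vehicle and 3 with 5-azacytidine, with medians of 0.32 and 0.39. Of all genes, 8.24% and 8.6% were higher past 1.5-fold. CCNA2, the cyclin that works with CDK2 in S phase and with CDK1 in G2, had scaled intensities of 4.58 and 4.34 in non-MG cells and 7.01 and 6.54 in MG cells. CCNB1, the main mitotic cyclin, was at 13.8 and 13.8 in non-MG cells and at 21.0 and 23.0 in MG cells. The groups did not overlap for either cyclin, and the ratios were 0.61 and 0.59 for CCNA2 (spot error 0.03 each) and 0.60 and 0.74 for CCNB1 (spot error 0.04 each). Both CCNB1 probes, one of them spotted repeatedly, gave ratios between 0.58 and 0.77, and the bright probe alone, at 0.58 with vehicle, was just short of 1.5-fold. CCNB2, the second B-type cyclin, was at 43.3 and 41.3 in non-MG cells and at 53.8 and 47.2 in MG cells, a smaller difference of 0.31 and 0.20.

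CDK1, their kinase partner, had 1 bright and 1 dim probe. On the bright probe it was at 19.4 and 21.2 in non-MG cells and at 22.9 and 26.4 in MG cells. The ratios of this probe were 0.24 and 0.32 (spot error 0.02 each). The dim probe had ratios of -0.08 and 0.21 with a spot error of 0.45, and the mean of both probes, 0.08 and 0.27, carries that error. CDC25C, the phosphatase that activates CDK1, was at 1.70 and 1.95 in non-MG cells and at 2.20 and 1.78 in MG cells. Its groups overlapped, with a ratio of 0.37 with vehicle and -0.13 with 5-azacytidine (spot error 0.10 each). The latter turned to values up to 0.13 when arrays were centred on the median or scaled to spike-in RNA. PLK1, the polo kinase of mitotic entry and exit, had ratios of 0.27 and 0.38 over 2 probes.

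CDC20 and UBE2C serve the anaphase-promoting complex as activator and ubiquitin-conjugating enzyme. CDC20 was at 13.1 and 13.4 in non-MG cells and at 15.7 and 18.2 in MG cells. UBE2C was at 37.6 and 38.8 in non-MG cells and at 47.4 and 56.7 in MG cells. For both, the MG array with 5-azacytidine was the highest of the 4, and the ratios were 0.26 and 0.44 for CDC20 and 0.33 and 0.55 for UBE2C. PTTG1, the securin that this complex destroys, differed least in the group with vehicle after the CDK1 mean, with 113 and 113 in non-MG cells, 121 and 121 in MG cells and ratios of 0.09 and 0.11 (spot error 0.07).

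FOXM1, the transcription factor of G2 and mitotic genes, was at 6.15 and 5.89 in non-MG cells and at 8.08 and 7.77 in MG cells. Its ratios of 0.39 and 0.40 lay close to the median of the whole list. TOP2A, which untangles sister chromatids, was at 3.25 and 3.28 in non-MG cells and at 4.67 and 5.49 in MG cells, with ratios of 0.53 and 0.74 (spot error 0.03 each). MKI67, which coats mitotic chromosomes and is used as the Ki-67 proliferation marker, was measured by 3 probes. They gave ratios of 0.18 to 0.46 with vehicle and of -0.16 to 0.35 with 5-azacytidine, where 2 of the 3 probes were below 0. The mean of 0.03 with 5-azacytidine was -0.10 with the brightest probe alone and also turned below 0 after quantile normalization.

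Among the kinetochore and checkpoint genes all 10 were above 0 both times, with medians of 0.45 and 0.51, and 3 passed 1.5-fold each time. Of all genes, 47.1% and 49.5% were above 0, and 8.24% and 8.6% were higher past 1.5-fold. CENPE, the kinesin that carries chromosomes to the spindle equator, had the highest ratio of the 40. It was at 2.22 and 1.70 in non-MG cells and at 4.63 and 4.37 in MG cells. The groups were far apart, with a 2.09-fold difference with vehicle (log2 ratio 1.06, spot error 0.03) and a 2.57-fold difference with 5-azacytidine (log2 ratio 1.36, spot error 0.04). It was the sole member past 2-fold with either treatment. MAD2L1, which encodes the checkpoint protein Mad2, was at 9.76 and 10.8 in non-MG cells and at 16.2 and 16.9 in MG cells. Its ratios were 0.73 and 0.64 (spot error 0.08).

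The remaining checkpoint genes encode kinases or related proteins that signal unattached kinetochores. BUB1B was at 10.6 and 9.11 in non-MG cells and at 13.0 and 12.9 in MG cells, and TTK at 3.65 and 3.34 as compared with 4.41 and 4.42. With BUB1, which had 0.31 and 0.24, their ratios lay between 0.24 and 0.51, within 1.5-fold. CENPA, the histone H3 variant that marks centromeres, had ratios of 0.40 and 0.39.

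NDC80, NUF2 and SPC25 are subunits of the complex that grips microtubules. NDC80 was at 16.2 and 16.8 in non-MG cells and at 22.9 and 24.7 in MG cells. NUF2 was at 3.67 and 3.58 in non-MG cells and at 5.60 and 5.11 in MG cells. SPC25 was at 14.3 and 14.4 in non-MG cells and at 20.3 and 17.3 in MG cells. With vehicle these subunits had similar ratios of 0.51, 0.61 and 0.51, and with 5-azacytidine they were 0.55, 0.51 and 0.27.

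CENPF, a large protein of the outer kinetochore, had a bright and a dim probe that disagreed. The bright probe was at 50.1 and 37.3 in non-MG cells and at 79.4 and 67.9 in MG cells, with ratios of 0.67 and 0.86 (spot error 0.07 each). The dim probe was at 0.908 and 0.688 in non-MG cells and at 0.631 and 1.29 in MG cells, with ratios of -0.53 and 0.91 (spot error 0.16 each). The mean of both was 0.07 with vehicle and 0.89 with 5-azacytidine, so with the bright probe alone CENPF would also have passed 1.5-fold with vehicle.

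**Figure D3:**
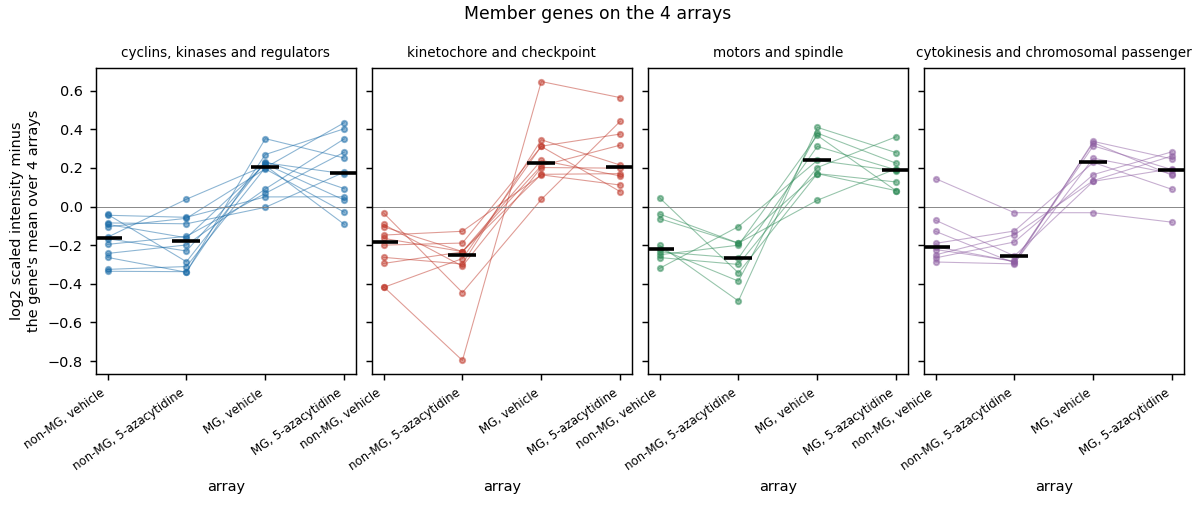
Log2 scaled intensity of each mitotic gene minus its mean over the 4 arrays (y axis) on each array (x axis), with 1 panel per group, 1 line per gene and black bars for the median of the group. In each panel the medians of both non-MG arrays lie below 0 and those of both MG arrays above 0, with little step between vehicle and 5-azacytidine.

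The 9 motor and spindle genes were all above 0 both times, with medians of 0.55 and 0.46, and 3 passed 1.5-fold each time. The shares of all genes were 47.1% and 49.5% above 0, and 8.24% and 8.6% higher past 1.5-fold. TPX2, which activates Aurora A kinase on the spindle, was at 15.3 and 13.6 in non-MG cells and at 23.1 and 20.7 in MG cells. AURKA, the Aurora A kinase itself, was at 8.74 and 8.53 in non-MG cells and at 12.1 and 13.5 in MG cells. TPX2 had ratios of 0.60 and 0.61 and AURKA of 0.47 and 0.66. ASPM, a protein of the spindle poles, was at 4.50 and 3.68 in non-MG cells and at 6.87 and 6.27 in MG cells as the mean of 2 probes, and each probe had ratios of 0.56 or more.

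KIF11, the motor that pushes the spindle poles apart, was at 3.16 and 3.27 in non-MG cells and at 4.85 and 3.97 in MG cells. The MG array with vehicle was the highest, and the ratio was 0.62 with vehicle and 0.28 with 5-azacytidine (spot error 0.09 and 0.10). KIF4A, a chromosome-bound kinesin, followed the same order, with ratios of 0.56 and 0.29. KIF2C, a kinesin that shortens microtubules, was at 36.3 and 27.7 in non-MG cells and at 39.6 and 38.4 in MG cells. HMMR, a microtubule-binding protein, was at 26.6 and 24.0 in non-MG cells and at 27.9 and 31.3 in MG cells. For KIF2C and HMMR the ratio with vehicle was small (0.13 and 0.07, spot error 0.07 each) and that with 5-azacytidine larger (0.47 and 0.38). The microtubule-associated proteins DLGAP5 and NUSAP1 had ratios of 0.55 and 0.46 and of 0.23 and 0.27.

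Of the 9 genes of cytokinesis and the chromosomal passenger complex, 8 were above 0 both times, with medians of 0.42 and 0.45. Only KIF23 passed 1.5-fold, and only with vehicle. The shares of all genes were 47.1% and 49.5% above 0, and 8.24% and 8.6% higher past 1.5-fold. KIF23, a motor of the central spindle, was at 6.17 and 6.13 in non-MG cells and at 9.51 and 8.93 in MG cells. Its ratios were 0.62 and 0.54 (spot error 0.06 each), and its 2 probes gave 0.51 and 0.74 with vehicle. PRC1, which bundles the microtubules of the central spindle, was at 34.0 and 32.6 in non-MG cells and at 49.4 and 45.3 in MG cells, with ratios of 0.54 and 0.47. KIF20A, another central spindle motor, was at 4.68 and 4.12 in non-MG cells and at 5.38 and 5.63 in MG cells. ANLN, a scaffold of the contractile ring, and ECT2, which activates RhoA at the division site, had ratios between 0.38 and 0.47.

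The chromosomal passenger complex joins the kinase AURKB to BIRC5, CDCA8 and INCENP, and its transcripts did not share a direction. BIRC5, which encodes survivin, was at 111 and 98.9 in non-MG cells and at 144 and 136 in MG cells. CDCA8, which encodes borealin, was at 31.1 and 29.5 in non-MG cells and at 45.2 and 40.2 in MG cells. AURKB was at 3.04 and 3.18 in non-MG cells and at 4.07 and 3.69 in MG cells. These 3 were higher on both MG arrays, with ratios from 0.22 to 0.54. INCENP, the scaffold of the complex, was at 5.83 and 5.16 in non-MG cells and at 5.16 and 4.99 in MG cells. Its non-MG array with vehicle was the highest and the other 3 lay close together, with ratios of -0.18 and -0.05 (spot error 0.03 each). It was the lowest of the 40 with vehicle, but centring on the median or spike-in scaling brought that ratio up to 0.02 and 0.03, and with 5-azacytidine both of these and normexp background correction brought it above 0, up to 0.21.

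To ask whether blocking DNA methyltransferases altered the mitotic genes, 5-azacytidine was compared with vehicle in each population. These comparisons share no array with each other, but each shares its arrays with both comparisons above. In non-MG cells the 40 genes had a median log2 ratio of -0.04, as did all genes, with a range of -0.41 to 0.22. None of the 40 passed 1.5-fold, whereas 6.01% of all genes were higher and 4.58% lower. In MG cells the median was -0.06, as compared with -0.02 for all genes, with a range of -0.30 to 0.40. Again 0 of the 40 passed 1.5-fold, as compared with 7.62% of all genes higher and 6.37% lower. As above, all genes include a larger share that was not detected on every array. In 26 genes the ratio was within 0.2 of 0 in both populations, as compared with 36.5% of all genes, and 18 were below 0 in both, as compared with 36% of all genes. In the additive limma fit, 0 of the 40 genes and 0% of all genes had an adjusted p under 0.05 for 5-azacytidine, and before adjustment 0 of the 40 and 10.5% of all genes did.

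Some ratios nevertheless exceeded the error between spots, by more than 2 spot errors in 13 genes in non-MG cells, as compared with 29.7% of all genes, and in 19 in MG cells, as compared with 34.1%. In non-MG cells the most negative were CENPF (-0.41), KIF2C (-0.39), CENPE (-0.38) and ASPM (-0.29), and the most positive were KIF4A (0.22) and CDC25C (0.20). In MG cells the most negative were CDC25C (-0.30), KIF11 (-0.29), SPC25 (-0.23) and MKI67 (-0.22), while CENPF (0.40), UBE2C (0.26), TOP2A (0.23) and CDC20 (0.21) were the most positive. The genes at the ends thus came from several groups, and CENPF and CDC25C stood at opposite ends in the 2 populations. The value of CENPF in MG cells came from the dim probe alone, at 1.04, and its bright probe had -0.23.

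The difference of the 2 responses, MG minus non-MG, had a median of 0.03 over the 40 genes and of 0.02 over all genes. It ran from -0.50 for CDC25C to 0.82 for CENPF, and CENPF alone was beyond 1.5-fold, as compared with 15.8% of all genes. On the bright probe of CENPF the difference was 0.20, within 1.5-fold. A fit with this difference as a term leaves no residual degree of freedom among the 4 arrays, so it has no test.

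**Figure D4:**
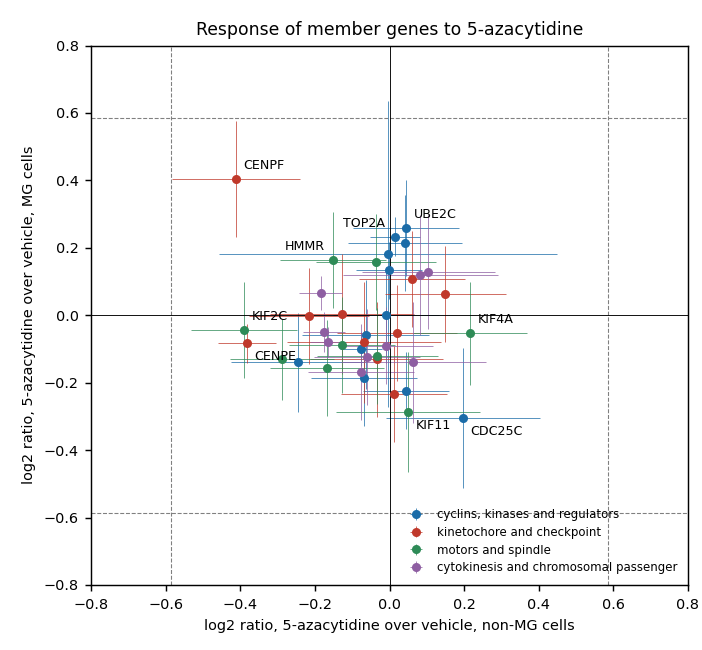
Log2 ratio of 5-azacytidine over vehicle for each mitotic gene in non-MG cells (x axis) and in MG cells (y axis), coloured by group, with bars of 2 spot errors and dashed lines at 1.5-fold. All 40 points lie inside the dashed lines, and CENPF stands apart at the upper left, at -0.41 and 0.40.

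Other genes of the same pathways were taken from lists of the remaining kinetochore, spindle, condensin, cohesin and anaphase-promoting complex genes. Of 32 other kinetochore genes, 15 were higher and 0 lower past 1.5-fold in MG cells with vehicle, with a median of 0.54, whereas 8.24% of all genes were higher and 12.6% lower. With 5-azacytidine 12 were higher and 0 lower, with a median of 0.44, whereas 8.6% of all genes were higher and 12.3% lower. The highest with vehicle were CENPL, of the inner kinetochore, at 1.24 and SKA3, of the complex that tracks microtubule ends, at 1.21. With 5-azacytidine CENPL had 0.99 and SKA3 0.55, within 1.5-fold, and CENPT was the lowest both times at -0.28 and -0.44. CENPL was dim, with scaled intensities of 0.19 and 0.23 in non-MG cells and 0.45 and 0.46 in MG cells. Of 31 other spindle genes retained out of 32, 9 were higher and 0 lower with vehicle (median 0.46) and 7 higher and 0 lower with 5-azacytidine (median 0.40). PLK4, the kinase of centriole duplication, had ratios of 0.93 and 0.85 and the kinesin KIF20B of 0.79 and 0.84. The lowest were ARHGAP11A (-0.32) and NUMA1 (-0.28) with vehicle, and PIF1 (-0.35) and NUMA1 (-0.31) with 5-azacytidine. ARHGAP11A had 0.33 with 5-azacytidine. The kinetochore and spindle genes outside the 40 thus had medians of a similar size, and these lists, too, were drawn up with earlier results of these data known.

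Condensin folds mitotic chromosomes and cohesin holds sister chromatids together. The 8 condensin subunits had medians of 0.36 and 0.28, with NCAPG the highest at 0.93 and 0.87 and the sole one past 1.5-fold each time. Of 14 genes of cohesin and separase, 4 were higher and 0 lower with vehicle (median 0.36) and 2 higher and 0 lower with 5-azacytidine (median 0.39), with ESCO2, a cohesin acetyltransferase, at 1.05 with vehicle and 0.47 with 5-azacytidine. Of 17 genes of the anaphase-promoting complex, 1 was higher each time (CDC23 at 0.62 with vehicle and ANAPC13 at 0.70 with 5-azacytidine) and 0 lower, with medians of 0.28 and 0.29. For these lists, too, the shares of all genes were 8.24% higher and 12.6% lower with vehicle, and 8.6% and 12.3% with 5-azacytidine.

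**Figure D5:**
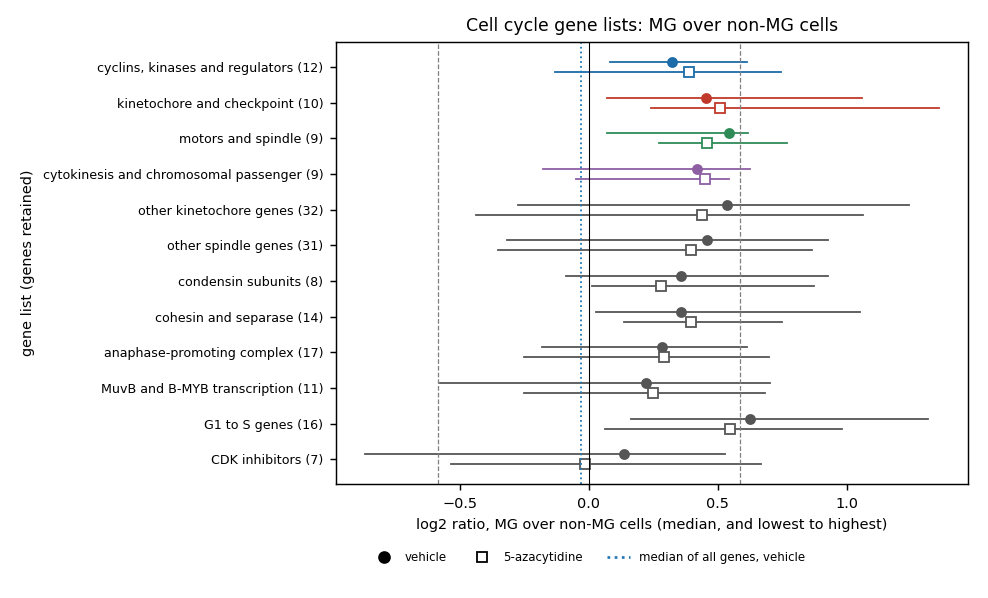
Median ratio of MG over non-MG cells on the log2 scale (x axis) for the 4 groups of mitotic genes (coloured) and for other cell cycle lists (grey), with lines from the lowest to the highest gene, filled circles for vehicle and open squares for 5-azacytidine; numbers in brackets are the genes retained. All lists but the CDK inhibitors have both medians above 0.2, while the dotted line of all genes with vehicle is at -0.03.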

How the data were processed

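RNA of MG and non-MG HCT116 cells, each with 5-azacytidine or vehicle, was measured on 4 one-colour Agilent SurePrint G3 arrays, and the groups were taken from the sample labels. The labels name RNAiso Plus and the methods of the study an RNeasy kit for RNA extraction. The authors deposited Agilent Feature Extraction files, which give the background-corrected intensity of every spot on a linear scale, with flags. A further table of the authors holds log2 values of 24189 probes, made in GeneSpring, from which signals in the lowest 20th percentile and flagged probes had been removed and in which each probe is centred over the arrays. It was used as an alternative.

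Here each array's 75th percentile was subtracted from the log2 intensity of its spots, after control spots and outlier flags (5 probes) were left out, and spots of a probe were averaged. A probe was dropped where its signal was in the lowest 20th percentile in 2 or more conditions, or nowhere well above background, and 23860 probes remained. They were named by matching their accession to RefSeq of GRCh38.p14, which named 14318 of the 18919 genes. The array design refers to another build, so only the promoter windows, which are from GRCh38.p14, are given with coordinates. Of the mitotic genes, 32 had 1 probe and 8 had several, which were averaged. A gene was counted past 1.5-fold. With 1 array per condition there were no replicates. An additive limma fit over all genes, with terms for population and treatment, 1 residual degree of freedom and Benjamini-Hochberg adjustment, was chosen after seeing the data. The counting was tested on simulated arrays.

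The mitotic genes and all gene lists were chosen with earlier results of these data known, and the printed promoters after the values were seen. All 40 mitotic genes could be named. Of other lists, at most the 2 highest and 2 lowest genes of a comparison that were well above background on all 4 arrays were named. The alternatives were normexp background correction (offset 50), quantile normalization, centring on the median, no filter, a filter requiring detection on every array, raising of low signals to the detection limit of the array, use of the brightest probe, the authors' log2 values, and thresholds of 2-fold and 1.4-fold. Scaling to 8 spike-in control probes was chosen after seeing the data. Python 3.11.15, numpy 2.4.6, pandas 2.3.3, matplotlib 3.10.9, R 4.3.3 and limma 3.58.1 were used.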

Additional observations from a re-analysis of the deposited data

Results flagged for a closer look

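The genes CENPF, HMMR and KIF20A had ratios for 5-azacytidine of opposite sign in the 2 populations, each by more than 2 spot errors. The difference was not tested, since each condition had 1 array, and the share of all genes with such ratios was not counted. CENPF had log2 ratios of 5-azacytidine over vehicle of -0.41 in non-MG cells and 0.40 in MG cells as the mean of its probes. Its dim probe had -0.40 in non-MG cells and 1.04 in MG cells, whereas its bright probe was below 0 in both (-0.43 and -0.23). HMMR, a microtubule-binding protein, had -0.15 in non-MG cells and 0.16 in MG cells (spot error 0.07 each). KIF20A, a motor of the central spindle, had -0.19 in non-MG cells and 0.065 in MG cells (spot error 0.03 each). The MG values of HMMR and KIF20A thus lay close to 2 spot errors. Centring on the median moved the median of all genes in MG cells from -0.02 to -0.06, and these values are lower by the same shift.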

How the results depend on the processing

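Each group had 1 array, so no array could be left out and no slide block could be fitted. Arrays could not be paired by replicate number, because the groups share fewer than 2 such numbers. The additive limma fit, which sets the populations against each other within each treatment, had 0 of 40 genes at an adjusted p under 0.05 for population. It had 34 with normexp (4335 of all 18919 genes, 2681 of them higher in MG cells). With detection required on every array it had 20 (3659 of all 15708, 1780 of them higher), and under the other alternatives 0. At an unadjusted limma p under 0.05 the alternatives gave 19 to 35 of the 40. The 19 were without a filter, as compared with 5897 of all 40909 genes, and the 35 with normexp, as compared with 7386 of all 18919. For 5-azacytidine it had 0 at an adjusted p under 0.05 throughout. At an unadjusted limma p under 0.05 it had 5 with normexp, all lower with 5-azacytidine, and 0 under the other alternatives. With normexp 2749 of all 18919 genes were under that unadjusted p in either direction. In MG over non-MG cells the median of the 40 genes stayed above 0 under every alternative. With vehicle it was 0.59 with centring on the median and 0.60 with spike-in scaling, against 0.40. With 5-azacytidine it was 0.37 after quantile normalization, 0.71 with centring and 0.68 with spike-in scaling, against 0.45. The count past 1.5-fold with vehicle, 9, became 5 after quantile normalization, 21 with centring and 22 with spike-in scaling, 1 at 2-fold and 16 at 1.4-fold. With 5-azacytidine it was also 9, and became 17 with normexp, 5 after quantile normalization, 28 with centring, 28 with spike-in scaling, 1 at 2-fold and 14 at 1.4-fold. Of all genes, 15.8% with vehicle and 20.9% with 5-azacytidine were higher past 1.5-fold with centring, and 16.2% and 19.3% with spike-in scaling. For normexp, quantile normalization and the other thresholds the share of all genes was not counted, so those counts cannot be set against it. The median response to 5-azacytidine in non-MG cells, -0.04, was -0.12 with normexp and -0.13 with centring, and above 0 after quantile normalization (0.02). In MG cells, -0.06 became 0.018 with spike-in scaling, so neither response has a settled sign. The values of dim probes, such as those of CDK1 and CENPF, carry the largest spot errors. The brightest probe, the filters, the detection limit and the authors' values left the fold counts within 1.5 times and these medians within 0.02.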

Other observations

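The regulators that act before mitosis were also measured. Of 16 genes of the passage from G1 to S phase, all 16 were above 0 in MG over non-MG cells both times, 8 were higher past 1.5-fold and 0 lower each time (8.24% and 12.6% of all genes with vehicle, 8.6% and 12.3% with 5-azacytidine), and the medians were 0.62 with vehicle and 0.55 with 5-azacytidine. CDC25A, the phosphatase that activates CDK2, had a log2 ratio of 1.32 with vehicle and 0.85 with 5-azacytidine. CDC6, which loads the replicative helicase, had 1.17 and 0.98, and CCND1, cyclin D1, was the lowest with vehicle at 0.16. CDC6 was dim, with scaled intensities of 0.14 and 0.20 in non-MG cells and 0.32 and 0.39 in MG cells, and dim probes carry the largest spot errors. Of the 11 genes of the MuvB complex and its partners, 2 were higher and 0 lower past 1.5-fold with vehicle and 1 higher and 0 lower with 5-azacytidine, with medians of 0.22 and 0.25. Among them MYBL2, which encodes B-MYB, was the highest at 0.70 and 0.68. RBL2, which encodes the pocket protein p130 of the repressing form, had -0.37 and -0.24, and its partner E2F5 -0.58 and -0.25. Other partners of the repressing form ran the other way, with 0.61 and 0.44 for RBL1, which encodes p107, and 0.28 and 0.56 for E2F4.

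The 7 CDK inhibitors retained, of 8 listed, had medians of 0.14 with vehicle and -0.01 with 5-azacytidine. CDKN1C, which encodes p57, was lower in MG cells past 1.5-fold with vehicle at -0.87, and CDKN1B, which encodes p27, had -0.32 and -0.44. CDKN3 ran the other way, with the highest ratio of the list with vehicle at 0.53, and had 0.54 with 5-azacytidine. CDKN1A, which encodes p21, had 0.26 with vehicle and 0.67 with 5-azacytidine, and its own response to 5-azacytidine was 0.16 in non-MG cells and 0.57 in MG cells.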
